A study of Mus musculus with 32 samples.

Results

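The 4 tissue inhibitors of metalloproteinases, Timp1, Timp2, Timp3 and Timp4, and the ADAMTS proteases Adamts1, Adamts4, Adamts5 and Adamts9, which cleave aggrecan and related proteoglycans, were followed in ischaemic cerebrum and spinal cord. They were chosen by gene symbol, and all 8 were on the array with 1 probe each, among 19505 genes measured. RNA came from male C57BL/6J wild-type mice, 6 to 12 weeks old and weighing 20 to 25 g, and the study set cerebral photothrombosis (cPT) against spinal cord photothrombosis (scPT). In photothrombosis a dye in the blood is activated by light and clots the vessels in the lit field. Each of the 8 groups had 4 arrays, from cerebrum or cord, as control or at 1, 3 or 7 days, and the labels do not say whether controls had surgery or how much tissue beside the lesion was taken.

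TIMPs bind the active site of matrix metalloproteinases and so block them. Timp1 is an inducible inhibitor and is made by reactive astrocytes after injury of the nervous system. Timp2 also takes part in activating pro-MMP2 together with Mmp14. Timp3 is held in the matrix and is the main TIMP of the ADAMTS aggrecanases, and Timp4 is a TIMP of more restricted tissue range. The ADAMTS aggrecanases cut aggrecan, brevican, neurocan and versican, the chondroitin sulfate proteoglycans of perineuronal nets and of glial scars, which hinder the growth of axons.

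The sequences just before the starts of Timp1 and Adamts1 are printed because these genes had the largest rises of all members in the cord at days 1 and 3. RefSeq (GRCm38.p6) listed such a window for 6 of the 8 members, all but Adamts4 and Adamts5. Each line gives the 250 bases before the start, on the gene's own strand, and capitals mark matches to the motifs searched. The Timp1 window is chrX:20869916-20870165 on the + strand, and the Adamts1 window is chr16:85803114-85803363 on the - strand.
Timp1: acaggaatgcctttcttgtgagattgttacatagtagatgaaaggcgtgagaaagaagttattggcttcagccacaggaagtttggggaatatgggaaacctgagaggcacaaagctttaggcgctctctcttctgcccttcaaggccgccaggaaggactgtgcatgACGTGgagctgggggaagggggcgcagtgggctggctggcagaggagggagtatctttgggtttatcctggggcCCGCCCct
Adamts1: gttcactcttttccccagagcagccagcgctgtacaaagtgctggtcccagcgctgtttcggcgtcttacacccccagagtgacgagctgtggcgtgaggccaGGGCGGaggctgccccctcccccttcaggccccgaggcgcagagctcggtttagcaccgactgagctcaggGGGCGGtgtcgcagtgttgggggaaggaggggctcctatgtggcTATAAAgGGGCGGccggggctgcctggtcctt
Searched on both strands were the AP-1 site TGANTCA, the STAT site TTCNNNGAA, the GC box GGGCGG, the hypoxia response core ACGTG and the TATA box TATAAA, and marked matches do not overlap. The Adamts1 window held 3 GC boxes, which begin 147, 76 and 25 bases before the start, and a TATA box 32 bases before it. In the Timp1 window 1 GC box began 8 bases before the start and 1 ACGTG 82 bases before it. Over all 27025 genes with such a window, 35.4% held GGGCGG, 18.5% ACGTG, 14.3% TATAAA, 8.13% TTCNNNGAA and 7.82% TGANTCA. Neither TGANTCA nor TTCNNNGAA occurred in the windows of Timp1 or Adamts1.

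Values are log2 values centred per probe, so levels can be compared between groups but not between genes. Trunk Hox genes were higher on every cord control than on every cerebral control for 7 of 9 measured, and forebrain genes were lower for 8 of 8, a check chosen after the data were seen. Cord control arrays differed in skeletal muscle genes, whose list mean was 3.61, 3.04, 1.15 and 0.24 on replicates 1 to 4, against 0.03 to 0.60 at cord day 7. Hypothalamic and pituitary genes had a list mean of 0.72 to 1.56 on cerebral controls, against -0.07 to 0.51 at cerebral days 1 and 3 and 0.45 to 2.01 at day 7, and the part of this in the cerebral differences was not tested. Fibroblast and leptomeningeal genes also varied on cord controls, at -0.80, 2.08, -0.86 and 0.87. Of all arrays, limma gave the lowest weight to cord day 3 replicate 1 (0.225). The labels do not name separate animals, so p-values rest on a spread between arrays that may be technical. Each group's titles carry a number range of their own, and should these be batches, they cannot be told apart from the groups.

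Timp1 and Adamts1 rose in the injured cord at all 3 days, and Timp2 rose in the injured cerebrum at all 3 days and in the cord at day 7. Differences are log2 differences from the same tissue's controls, tested with limma over all genes, and a gene passed with a Benjamini-Hochberg adjusted p under 0.05. Since the day 3 and day 7 arrays had been centred apart from controls, their differences had to exceed a bound of 0.165 or more that covers the uncertainty of the rebuilt offset. In the cord 7 of 8 members rose at day 1, where 15.8% of all genes were called higher. At cord day 3 4 of 8 rose (10.2% of all genes), and at cord day 7 again 4 of 8 (15.7%). In the cerebrum 2 of 8 rose at day 1 (8.91% of all genes), 1 at day 3 (3.45%) and 1 at day 7 (4.79%). These counts come from 1 spread shared by all groups, and with only the groups compared in the fit the order at day 1 turned, to 3 of 8 in the cord and 6 of 8 in the cerebrum. The percentages above belong to the shared fit, and the share of all genes called with only the groups compared is not given here. No member fell in any of these 6 comparisons in limma's test, also at an unadjusted p under 0.05 (0 of 8 in each), whereas 8.22%, 2.76% and 2.36% of all genes were called lower at the 3 cerebral days and 16.1%, 9.51% and 17.3% at the cord days. The members' median difference in the cord was 0.84, 0.63 and 0.73 at days 1, 3 and 7, beside 0.02, -0.08 and -0.10 for all genes. In the cerebrum it was 0.60, 0.52 and 0.26, beside -0.01, -0.03 and -0.05.

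**Figure D1:**
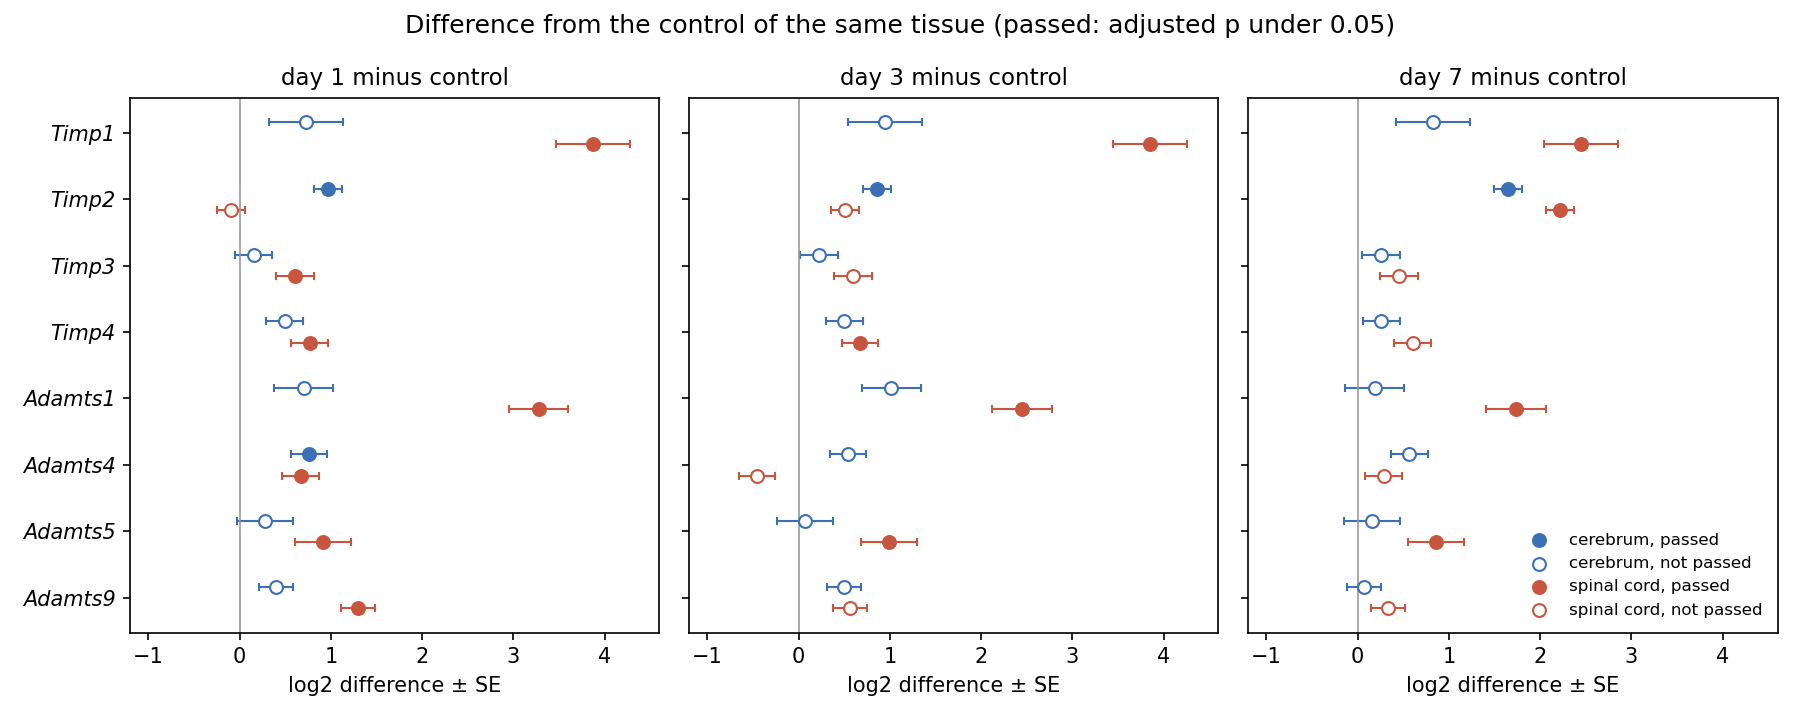
Log2 difference from control with its standard error (x axis) for the 8 genes (y axis) at days 1, 3 and 7, in cerebrum (blue) and spinal cord (red), with filled points for an adjusted p under 0.05. In the cord Timp1 (3.87, 3.85 and 2.45) and Adamts1 (3.28 and 2.45) lie farthest to the right at days 1 and 3, Timp1 and Timp2 (2.22) do so at day 7, ahead of Adamts1 (1.73), and Timp2 is the only gene that passed in the cerebrum at every day.

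Timp1 was the most raised inhibitor in the cord. Its values on cord controls were -0.20, -0.05, -0.36 and -0.53. Day 1 arrays had 3.75, 4.55, 4.55 and 1.51 and day 3 arrays 4.21, 2.56, 3.35 and 4.16. Day 7 arrays had 1.70, 2.45, 1.91 and 2.58. Every injured cord array lay above every cord control, and day 1 replicate 4 was the lowest of the day 1 and day 3 arrays. The rise was 14.7-fold at day 1 (log2 difference 3.87 ± 0.41 SE, adjusted p = 2.75e-08), 14.4-fold at day 3 (3.85 ± 0.41, adjusted p = 2.94e-08) and 5.45-fold at day 7 (2.45 ± 0.41, adjusted p = 1.78e-05). Without day 1 replicate 4 the day 1 difference was 4.57, and with quantile normalisation on top the day 7 difference was 1.44, which still passed. Among 19505 genes Timp1 ranked 10th by rise at cord day 1, 15th at day 3 and 361st at day 7.

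In the cerebrum Timp1 also lay higher on every injured array, but by far less. Cerebral controls had -0.96, -0.29, -0.41 and -0.43. The injured arrays had 0.17, 0.51, 0.05 and 0.08 at day 1 and 0.17, 1.05, 0.11 and 0.36 at day 3. Day 7 arrays had 0.67, 0.01, 0.02 and 0.50. No array of these 3 groups overlapped with the controls, as held for 12.5%, 12.5% and 14% of all genes at days 1, 3 and 7. The differences were 0.73, 0.95 and 0.82 (each ± 0.41 SE), with adjusted p = 0.238, 0.278 and 0.374 in the fit over all groups. That fit shares 1 spread over groups, and the SD of Timp1 was 0.21 to 0.43 in the cerebral groups but 1.44 at cord day 1. With only the groups compared in the fit, all 3 cerebral differences passed, at adjusted p = 0.00213, 0.0125 and 0.0106.

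**Figure D2:**
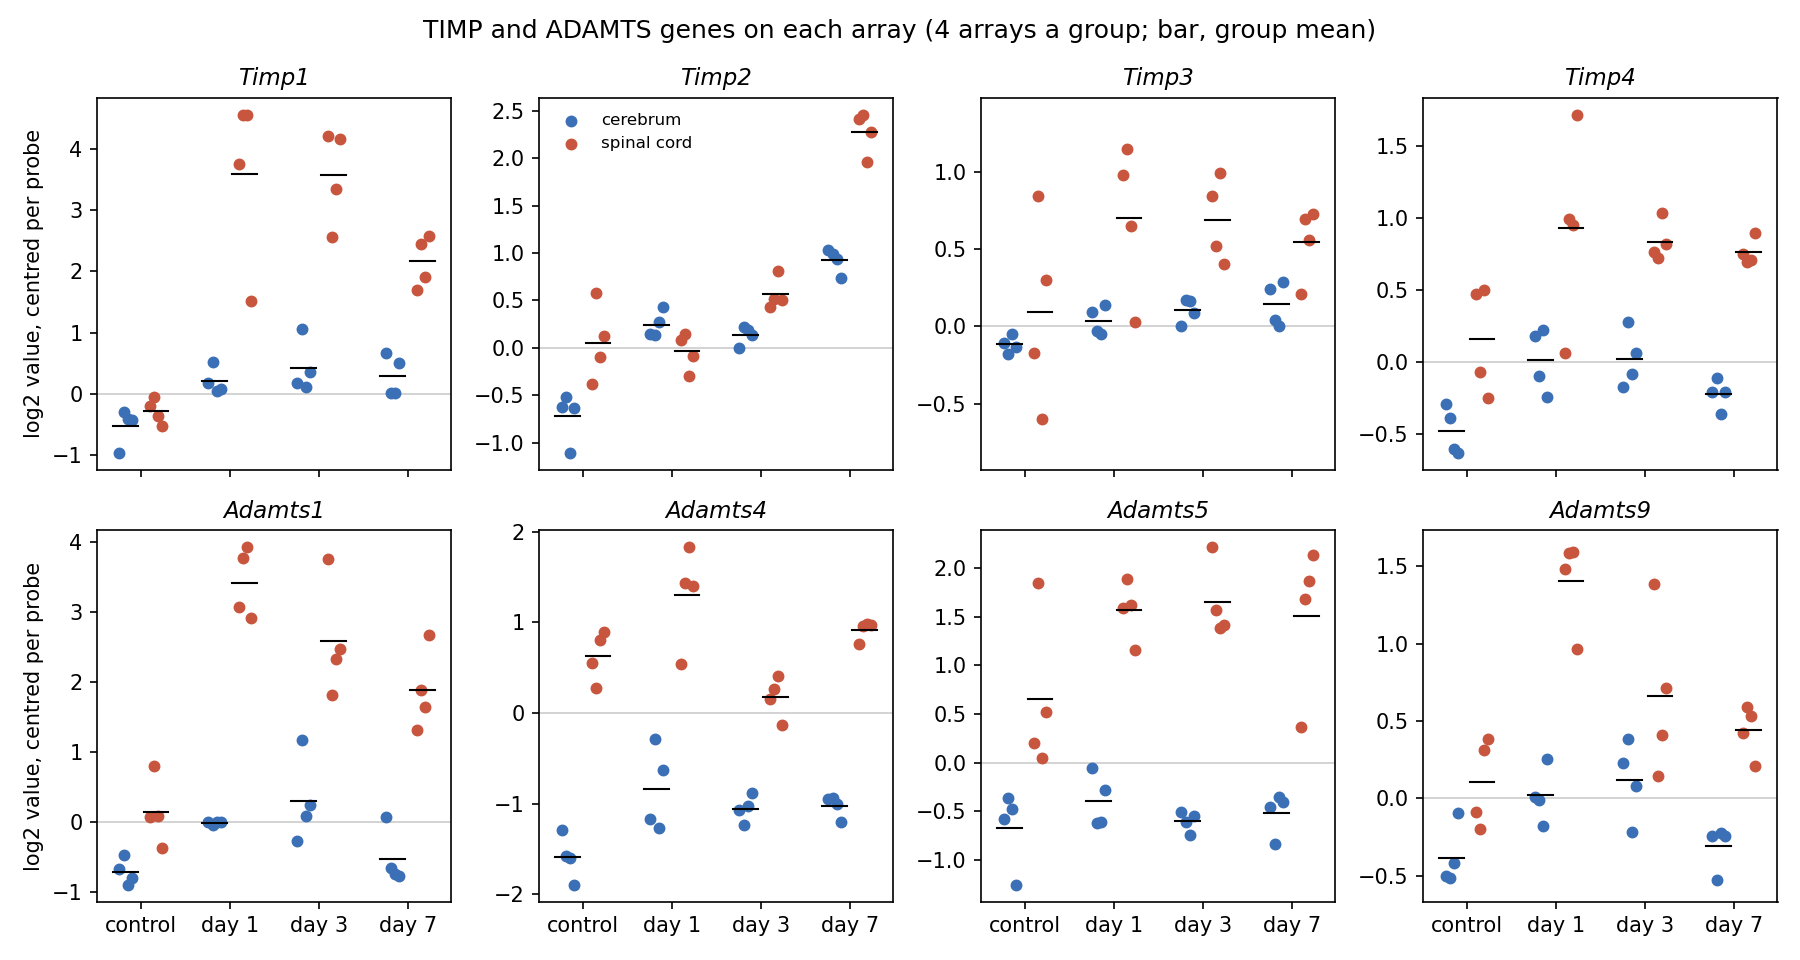
Log2 value of each of the 8 genes on each array (y axis, centred per probe) by time (x axis), with 4 arrays a group, cerebrum in blue, spinal cord in red and a bar at the group mean. Timp1 and Adamts1 stand high in the injured cord from day 1 on, whereas Timp2 is highest at day 7, at 1.95 to 2.45 on the cord arrays.

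Genes of reactive astrocytes were higher beside Timp1. Of 10 on that list, 9, 8 and 7 rose in the cord at days 1, 3 and 7 (median difference 1.53, 2.04 and 1.92), and 6, 7 and 4 rose in the cerebrum (1.37, 1.42 and 0.89). The list mean ran from 1.74 to 2.28 at cord day 1 against -0.56 to 0.62 on cord controls, and replicate 4 was the lowest there too. Neutrophil genes ran from 0.66 to 1.91 at cord day 1, again with replicate 4 lowest, but were highest at cord day 7 (2.20 to 3.77), where Timp1 stood below day 1, and had 0.09 to 0.78 on cord controls. The part of these cells in the Timp1 values was not tested, and in bulk tissue more cells of a type and more RNA per cell cannot be told apart.

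Timp2 followed another course, higher than control from day 1 on in the cerebrum and at day 7 in the cord. Cerebral controls were at -0.62, -0.52, -1.11 and -0.63. The day 1 values were 0.14, 0.14, 0.27 and 0.43, and the day 3 values 0.00, 0.22, 0.19 and 0.14. Day 7 arrays had 1.04, 0.99, 0.93 and 0.74. As deposited, without the rebuilt offset, these were 0.38, 0.33, 0.28 and 0.08, which overlapped with day 1. No injured array overlapped with a control. Timp2 rose 1.95-fold at day 1 (log2 difference 0.97 ± 0.15 SE, adjusted p = 4.31e-05), 1.81-fold at day 3 (0.86, adjusted p = 0.00193) and 3.12-fold at day 7 (1.64, adjusted p = 1.51e-08).

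On cord controls Timp2 had -0.38, 0.58, -0.10 and 0.12. Day 1 arrays had 0.09, 0.15, -0.30 and -0.09, and day 3 arrays 0.43, 0.52, 0.81 and 0.51. On day 7 arrays it had 2.41, 2.45, 1.95 and 2.28. Day 1 and day 3 overlap with the controls, and all day 7 arrays lie far above them. Day 1 differed from control by -0.09 ± 0.15 (adjusted p = 0.673, 95% interval -0.40 to 0.22) and day 3 by 0.51 (adjusted p = 0.0721). At day 7 Timp2 rose 4.65-fold (2.22 ± 0.15, adjusted p = 8.1e-13). Without cord control replicate 2 the day 3 difference was 0.68 and passed (adjusted p = 0.00457). The offset rebuilt for Timp2 at day 7 was 0.66, the largest of any member, so the size of the day 7 rises rests on it more than for the other genes. As deposited, and tested without the bound, the cerebral day 7 difference was 0.99 and passed. With quantile normalisation on top the cord day 7 difference was 1.12 and passed.

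Macrophage and microglial genes were higher on the same day 7 arrays. Of 10 monocyte and macrophage genes, 8 rose at cord day 7 (median 2.49) and 3 at cerebral day 7 (median 0.78). The list mean was 2.86 to 3.31 at cord day 7 and 0.69 to 0.94 at cerebral day 7, but 0.18 to 0.84 at cord day 1. At cord day 3, where Timp2 did not pass, it was already 1.31 to 2.97. Homeostatic microglial genes had a list mean of 0.44 to 0.63 at cerebral day 1 and of -0.81 to -0.43 at cord day 1. At day 7 their list mean was 0.89 to 1.04 in the cord, against -0.33 to -0.03 on cord controls. In the cerebrum it was 0.54 to 0.77 at day 7, which overlapped with day 1 and with day 3 (0.38 to 0.57), against -0.25 to -0.19 on controls. Their part in the Timp2 values was not tested.

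Timp3 and Timp4 changed by less than 2-fold. Timp3 had -0.17, 0.84, -0.60 and 0.30 on cord controls and 0.98, 1.14, 0.65 and 0.03 at day 1. Day 3 arrays had 0.84, 0.52, 0.99 and 0.40, and day 7 arrays 0.21, 0.69, 0.56 and 0.73. The controls overlapped with all 3 injured groups. Timp3 rose at cord day 1 (1.52-fold, log2 difference 0.61 ± 0.21, adjusted p = 0.0242). That call was lost without cord control replicate 1 or 3 or without cord day 1 replicate 1 or 2, where the difference was 0.52, 0.38, 0.51 and 0.46. Days 3 and 7 differed from control by 0.60 and 0.45 (adjusted p = 0.253 and 0.353). Both passed without cord control replicate 2, with differences of 0.84 and 0.70. In the cerebrum Timp3 lay between -0.18 and 0.28 on all arrays and did not pass at any day (0.15, 0.22 and 0.26).

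Timp4 had 0.47, -0.07, 0.50 and -0.25 on cord controls and 0.07, 0.99, 0.95 and 1.72 at day 1. It had 0.76, 0.72, 1.04 and 0.82 at day 3 and 0.75, 0.70, 0.71 and 0.90 at day 7, and on both days all arrays lay above all controls. The rise was 1.70-fold at day 1 (0.77 ± 0.20, adjusted p = 0.00402) and 1.59-fold at day 3 (0.67, adjusted p = 0.0459), and day 7 missed the threshold (0.60, adjusted p = 0.0858). The day 3 call was lost without control replicate 2 or 4 or day 3 replicate 1, 3 or 4, with differences of 0.53 to 0.70, and with quantile normalisation on top it was 0.40 (adjusted p = 0.576). Without day 1 replicate 4 the day 1 difference was 0.51. The day 7 difference passed without control replicate 1 or 3 (0.70 and 0.71). In the cerebrum Timp4 differed from control by 0.50, 0.50 and 0.26 (adjusted p = 0.0898, 0.355 and 0.927). With only the groups compared in the fit, cerebral day 1 passed (adjusted p = 0.0103), and cord days 1 and 3 did not (adjusted p = 0.0762 and 0.0723).

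Adamts1, a secreted protease of aggrecan and versican that also binds VEGF, was the most raised protease of the 4. Cord controls had 0.08, 0.80, 0.09 and -0.37. The cord had 3.08, 3.78, 3.93 and 2.92 at day 1 and 3.76, 1.81, 2.33 and 2.48 at day 3. By day 7 the values were 1.31, 1.89, 1.64 and 2.68. All injured cord arrays lay above all controls, and all day 7 arrays below all day 1 arrays. The rise was 9.69-fold at day 1 (3.28 ± 0.33, adjusted p = 8.8e-09), 5.45-fold at day 3 (2.45, adjusted p = 2.04e-06) and 3.32-fold at day 7 (1.73, adjusted p = 0.000123). With quantile normalisation on top the day 7 difference was 0.85 and did not pass (adjusted p = 0.0762). Among all genes Adamts1 ranked 19th by rise at cord day 1, 119th at day 3 and 696th at day 7.

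Cerebral Adamts1 moved far less. Controls had -0.67, -0.47, -0.90 and -0.80, and day 1 arrays lay at -0.04 to 0.00. Day 3 arrays had -0.28, 1.18, 0.09 and 0.24, and day 7 arrays 0.07, -0.65, -0.74 and -0.78. Day 1 and day 3 lay wholly above the controls, and day 7 overlapped with them. The differences were 0.70 at day 1 (adjusted p = 0.143), 1.02 at day 3 (adjusted p = 0.0928) and 0.18 at day 7 (adjusted p = 1). With only the groups compared in the fit, day 1 and day 3 passed (adjusted p = 0.000267 and 0.0206). Without day 3 replicate 2, the day 3 difference was 0.73.

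Immediate early genes rose beside Adamts1 in the cord, from low control levels. Of 12 listed, 8 rose at cord day 1 (median difference 1.19), 4 at day 3 and 5 at day 7. At cerebral days 1, 3 and 7, 6, 2 and 6 of them fell. Their list mean on cerebral controls ran from 0.30 to 1.08, above the cord controls at -0.96 to -0.57. In the injured cord it was 0.10 to 0.71 at day 1, -0.29 to 0.59 at day 3 and -0.25 to -0.09 at day 7. At cerebral day 7, where Adamts1 was low, the list mean was -0.30 to -0.06. Whether they and Adamts1 share a source was not tested.

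Adamts4, the aggrecanase that oligodendrocytes express, differed more between the tissues than with injury. Cerebral controls had -1.29, -1.58, -1.60 and -1.90, and cord controls 0.55, 0.28, 0.81 and 0.89. Cerebral day 1 arrays were at -1.16, -0.28, -1.26 and -0.63, and cerebral days 3 and 7 lay between -1.24 and -0.88. With the rebuilt offset, all injured cerebral arrays were above all cerebral controls, and all cord arrays were above all cerebral arrays. For day 3 this holds at the middle of the offset's range, whose half-width was 0.409. Within that range cerebral day 3 can overlap with the cerebral controls, and cord day 3 with cerebral day 1. At cerebral day 7 the lowest array (-1.21) lay above the highest control (-1.29) by less than the day 7 bound of 0.165, so overlap is possible there too. Adamts4 rose at cerebral day 1 (1.69-fold, 0.76 ± 0.20, adjusted p = 0.00845), a call lost without day 1 replicate 2 (0.57, adjusted p = 0.054) or with quantile normalisation on top (0.18, adjusted p = 0.607). Days 3 and 7 in the cerebrum differed by 0.54 and 0.57 (adjusted p = 1 and 0.206), and the day 3 bound was 0.574 because its offset was fixed only to a range. With quantile normalisation on top these 2 differences were -0.12 and 0.03.

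In the cord Adamts4 had 0.54, 1.44, 1.83 and 1.40 at day 1 and 0.16, 0.27, 0.40 and -0.13 at day 3. Its day 7 values were 0.76, 0.96, 0.98 and 0.97. It rose at day 1 (1.59-fold, 0.67 ± 0.20, adjusted p = 0.0109), and this call was lost without day 1 replicate 3 (0.49, adjusted p = 0.07). Day 3 was -0.46 from control (adjusted p = 0.97) and day 7 0.28 (adjusted p = 0.525). With the rebuilt offset, day 3 lay below day 1 on every array, with a difference of -1.13 that passed (adjusted p = 0.0445). As deposited, the arrays of day 3 (0.38 to 0.91) overlapped with those of day 1, and the difference was -0.62 (adjusted p = 0.0333 in limma without the bound). The call with the rebuilt offset was lost without day 1 replicate 2, 3 or 4 or day 3 replicate 1, 2 or 4, with quantile normalisation on top (adjusted p = 0.0794), array weights (0.0988), only the groups compared (0.167) or the allowance doubled (0.396).

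Myelin genes differed between the tissues as Adamts4 did. All 11 measured were higher on cord controls than on cerebral controls, by a median of 2.25, where the difference of Adamts4 was 2.23. At cerebral day 1, 7 of 11 rose (median 0.61), and at cord day 1, 6 fell and 1 rose (median -0.66) while Adamts4 rose. Their part in the Adamts4 values was not tested.

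Adamts5, the aggrecanase best known from cartilage, had 0.20, 1.85, 0.05 and 0.52 on cord controls. It had 1.59, 1.89, 1.62 and 1.16 at day 1 and 2.22, 1.57, 1.39 and 1.41 at day 3. Day 7 arrays had 0.36, 1.68, 1.87 and 2.13. Control replicate 2 lay among the injured arrays, and day 7 replicate 1 among the other controls. The cord differences were 0.91 ± 0.31 at day 1 (1.88-fold, adjusted p = 0.0222), 0.99 at day 3 (1.99-fold, adjusted p = 0.0325) and 0.86 at day 7 (1.81-fold, adjusted p = 0.0494). Without control replicate 2 they were 1.31, 1.39 and 1.25. Leaving out control replicate 1, 3 or 4 lost the call at all 3 days, as did leaving out day 1 replicate 2, day 3 replicate 1, or day 7 replicate 2, 3 or 4, with differences of 0.65 to 0.95. With quantile normalisation on top the day 3 and day 7 differences were 0.51 and 0.15, and neither passed. In the cerebrum Adamts5 lay between -1.26 and -0.05, overlapped with the controls at every day, and did not pass (0.28, 0.07 and 0.16).

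Fibroblast and leptomeningeal genes varied with Adamts5 and Timp3 on the cord controls. Control replicate 2 was the highest of the 4 for all 3, with a list mean of 2.08, Adamts5 at 1.85 and Timp3 at 0.84. Replicate 3 was the lowest for all 3, with -0.86, 0.05 and -0.60. At cord day 7 the list mean was 2.36, 3.38, 3.22 and 3.48, and replicate 1 was the lowest for all 3 as well. Of 11 such genes, 1, 4 and 7 rose in the cord at days 1, 3 and 7. Over these days the group mean of the list climbed, at 0.76, 1.53 and 3.11. The means of Timp3 (0.70, 0.69 and 0.55) and Adamts5 (1.565, 1.647 and 1.512) did not climb with it. Their part in the Adamts5 and Timp3 values was not tested.

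**Figure D3:**
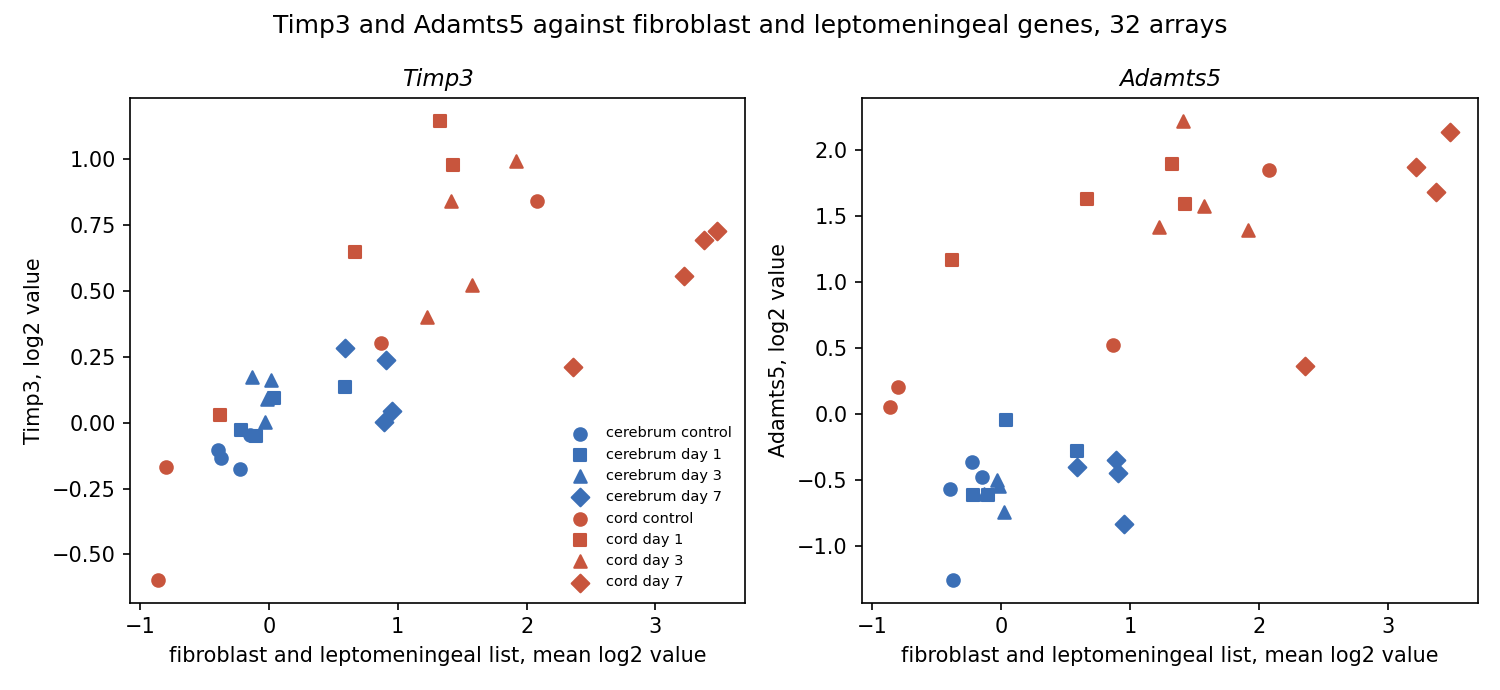
Timp3 (left) and Adamts5 (right) on each of the 32 arrays (y axis, log2 value) against the mean log2 value of the fibroblast and leptomeningeal list (x axis), by tissue (colour) and time (marker). The 4 cord controls run from -0.86 to 2.08 on the x axis, and both genes are lowest and highest on the same arrays of that group. From cord day 1 to day 7 the list's group mean climbs from 0.76 to 3.11, and those of the 2 genes do not climb with it.

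Adamts9, a conserved ADAMTS protease of versican and aggrecan, rose in the cord at day 1. Cord controls had -0.08, -0.20, 0.31 and 0.39. The day 1 arrays had 1.48, 1.58, 1.59 and 0.97, day 3 arrays 1.39, 0.14, 0.41 and 0.72, and day 7 arrays 0.42, 0.59, 0.53 and 0.21. Only day 1 lay wholly above the controls. The rise was 2.47-fold (1.30 ± 0.19, adjusted p = 3.99e-06), and days 3 and 7 differed by 0.56 and 0.34 (adjusted p = 0.32 and 0.378). The highest array of day 3 was replicate 1, the array of low weight, and without it the day 3 difference was 0.32. In the cerebrum Adamts9 differed by 0.40, 0.50 and 0.07 (adjusted p = 0.146, 0.716 and 1). With only the groups compared in the fit, cerebral day 1 passed at adjusted p = 0.0291.

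An exact two-sided permutation test of single members at day 1, with 4 arrays against 4, gave the smallest p the design allows, 0.0286, for Timp1, Adamts1 and Adamts9 in the cord. In the cerebrum it gave this p for Timp1, Timp2, Timp4, Adamts1 and Adamts4. Adjusted over the 16 permutation tests, this p became 0.0571 for all 8, so none of the 16 passed after adjustment. At the smallest p the adjusted value depends only on how many of the 16 tests reach it, so it cannot decide on a single member. For Timp3, Timp4, Adamts4 and Adamts5 in the cord, which passed in limma's fit over all groups, the exact permutation test gave p = 0.171, 0.0857, 0.114 and 0.114. With only cord day 1 and cord controls in the limma fit, these 4 did not pass either (adjusted p = 0.16, 0.0762, 0.0598 and 0.0611).

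The change from control was compared between the tissues directly, as the spinal minus the cerebral log2 difference. At day 1, 4 of 8 members differed between the tissues (11.3% of all genes). Timp1 rose more in the cord by 3.15 ± 0.58 (adjusted p = 0.000593), Adamts1 by 2.58 ± 0.46 (adjusted p = 0.000453) and Adamts9 by 0.90 ± 0.26 (adjusted p = 0.0246). Timp2 went the other way, with -1.06 ± 0.21 (adjusted p = 0.00158). The Adamts9 call was lost without cerebral control replicate 4, cord control replicate 2, cerebral day 1 replicate 3 or cord day 1 replicate 2 or 3 (0.80 to 0.84).

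At day 3, 3 of 8 differed (9.27% of all genes), with Timp1 at 2.90 (adjusted p = 0.00165), Adamts1 at 1.43 (adjusted p = 0.0461) and Adamts4 at -0.996 (adjusted p = 0.0226). At day 7, 3 of 8 differed (27.6% of all genes), with Timp1 at 1.62 (adjusted p = 0.0341), Adamts1 at 1.55 (adjusted p = 0.0109) and Timp2 at 0.57 (adjusted p = 0.0449), which turned to -0.79 (adjusted p = 0.00858) with quantile normalisation on top. Of the 16 arrays left out in turn, 12 cost Timp2 its day 7 call (0.43 to 0.60). It was kept without cerebral control replicate 3, cord control replicate 2, cerebral day 7 replicate 1 or cord day 7 replicate 3. Adamts1 at day 3 lost its call without 12 of 16 arrays (1.04 to 1.49) and kept it without cord control replicate 2, cerebral day 3 replicate 2 or cord day 3 replicate 2 or 3. Timp1 at day 7 lost its call without 9 of 16 arrays (1.49 to 1.60) and kept it without cerebral control replicate 1, cord control replicate 1 or 2, cerebral day 7 replicate 1 or 4 or cord day 7 replicate 1 or 3. Adamts4 at day 3 was lost without cerebral control replicate 4, cord control replicate 3 or cord day 3 replicate 4 (-0.94 to -0.89). With quantile normalisation on top, Timp1 kept its day 3 call at 1.82, while Timp1 at day 7 (0.50), Adamts1 at days 3 and 7 (0.55 and 0.84) and Adamts4 at day 3 (-0.53) did not pass. With control replicates 1 and 2 only, 0 of 8 passed in limma at day 3 or day 7, and 2 of 8 had an unadjusted p under 0.05 on each day. With control replicates 3 and 4 only, 2 of 8 passed at day 3 and 1 of 8 at day 7. Both settings leave 2 controls per tissue, and the share of all genes called in them is not given here. Timp3, Timp4 and Adamts5 did not pass at any day with all arrays. Their 95% intervals at day 1 were -0.14 to 1.05, -0.31 to 0.85 and -0.25 to 1.51. Without cord control replicate 2, Adamts5 passed at days 3 and 7 (1.32 and 1.10), and without cord day 7 replicate 1 at day 7 (1.08).

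**Figure D4:**
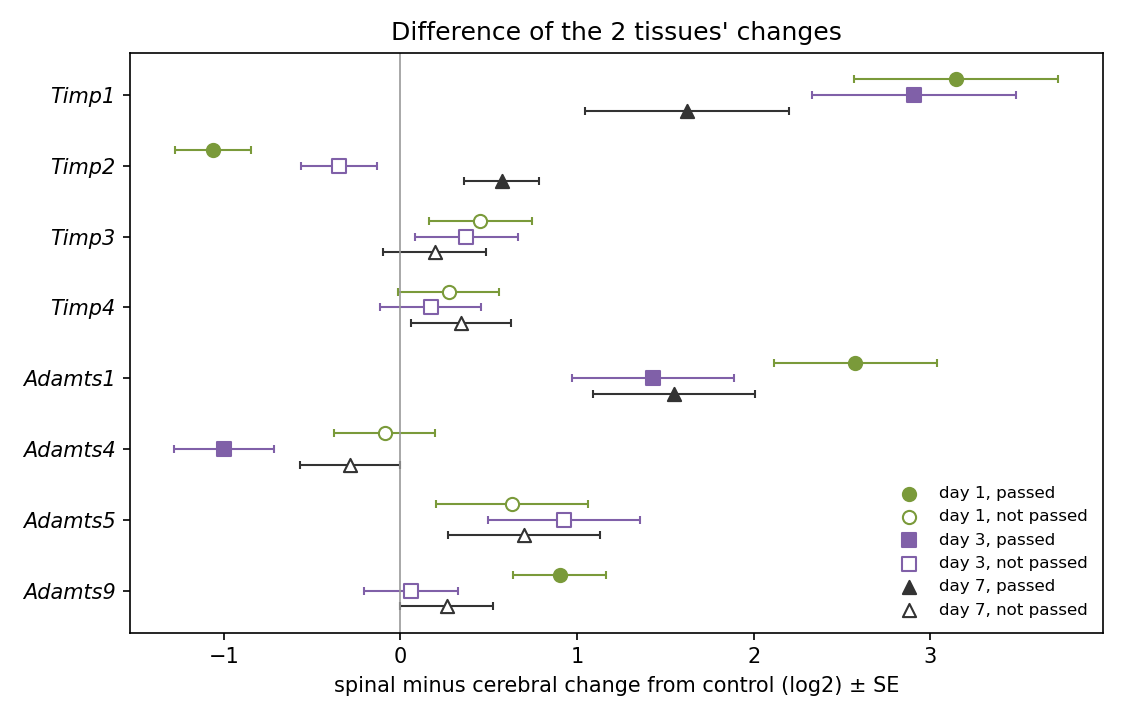
Spinal minus cerebral change from control (x axis, log2, with its standard error) for the 8 genes (y axis) at days 1, 3 and 7 (circles, squares, triangles), with filled markers for an adjusted p under 0.05. Timp1 and Adamts1 lie right of 0 at all 3 days, Timp2 moves from -1.06 to 0.57 (or to -0.79 with quantile normalisation on top), and Adamts4 at day 3 stands at -0.996.

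Without injury, 6 of 8 members were higher in cord than in cerebrum and none lower, where 17.2% of all genes were higher and 17.6% lower. The members' median was 0.71 beside -0.02 for all genes. Adamts4 differed most (2.23 ± 0.20, 4.68-fold, adjusted p = 1.17e-10), followed by Adamts5 (1.32, adjusted p = 0.000807), Adamts1 (0.86, adjusted p = 0.039), Timp2 (0.78, adjusted p = 0.000116), Timp4 (0.64, adjusted p = 0.0124) and Adamts9 (0.49, adjusted p = 0.0433). Timp1 and Timp3 differed by 0.24 and 0.21 (adjusted p = 0.699 and 0.473). Leaving out single control arrays lost Adamts1 (6 of 8 arrays), Adamts9 (5 of 8) and Timp4 (2 of 8, cord replicates 1 and 3), and the calls of Timp2, Adamts4 and Adamts5 held under every alternative run. The uneven muscle and fibroblast genes of the cord controls stand beside these differences, and their part was not tested.

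Within the injured cord, Timp2 and 3 other members changed between day 1 and day 7, where 29.1% of all genes did. Timp2 rose by 2.31 (adjusted p = 5.8e-13). Timp1 fell by 1.43 (adjusted p = 0.0111), Adamts1 by 1.54 (adjusted p = 0.000748) and Adamts9 by 0.97 (adjusted p = 0.00065). The Timp1 fall was lost without day 1 replicate 2 or 3 (-1.11 in each case) and with only the groups compared in the fit (adjusted p = 0.0728). Timp2 also rose from day 1 to day 3 (0.60, adjusted p = 0.0359), where 11.6% of all genes changed, and from day 3 to day 7 (1.71, adjusted p = 4.59e-08), where 6.4% did. The day 1 to day 3 call was lost without day 1 replicate 3 or 4 or day 3 replicate 2 or 3 (0.52 to 0.62), with quantile normalisation on top (0.49, adjusted p = 0.207), with only the groups compared in the fit (adjusted p = 0.0808) and with the allowance doubled (adjusted p = 0.47). The day 3 to day 7 rise was 0.73 and did not pass with quantile normalisation on top. In the cerebrum Timp2 rose from day 1 to day 7 by 0.68 (adjusted p = 0.0355), where 3.28% of all genes changed. With the values as deposited that difference was 0.02 and did not pass, and it was also lost without day 1 replicate 1, 2 or 3 or day 7 replicate 1, 2 or 3 (0.64 to 0.69), with the allowance doubled (adjusted p = 0.614) and with scaling to the 75th percentile (adjusted p = 0.0662).

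By group mean, Timp1 was highest at cord day 1 (3.59) and cord day 3 (3.57), which overlapped, then at cord day 7 (2.16), and all other groups lay at 0.42 or lower. Adamts1 followed the same order, at 3.43, 2.60 and 1.88, in which neighbouring cord days overlapped and did not pass. Timp2 was highest at cord day 7 (2.27), apart from cerebral day 7 (0.92) unless quantile normalisation was put on top, where they differed by -0.0042, and cerebral day 7 overlapped with cord day 3 (0.57). Adamts4 took its 4 highest means in the 4 cord groups, 1.30 to 0.18, as did Adamts5 (1.65 to 0.65), with overlap between neighbours.

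More of the metalloproteinases that TIMPs inhibit passed at day 7 than at day 1 in both tissues, and whether the 2 days differ was not tested for the list. Of 19 measured, 7, 8 and 11 rose in the cord at days 1, 3 and 7 and 1, 1 and 2 fell (median 0.27, 0.46 and 0.87). In the cerebrum 3, 1 and 7 rose and 2, 1 and 1 fell (median 0.03, 0.15 and 0.28). Mmp12, the macrophage elastase, rose in both tissues at every day, by 5.60, 4.35 and 7.62 in the cerebrum and 2.36, 3.11 and 9.38 in the cord. Mmp2, a gelatinase, rose at cord day 3 (1.15) and day 7 (3.28) and at cerebral day 7 (1.61). Mmp14, which activates pro-MMP2, rose on those days too (1.07, 3.23 and 1.96) and at cerebral day 1 (0.94). Mmp3, a stromelysin, rose at all 3 cord days (2.91, 3.08 and 2.94) and at cerebral day 7 (2.60).

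The other ADAMTS proteases did not move as Adamts1 did. Of 14 measured, 3, 0 and 4 rose and 3, 3 and 3 fell in the cord at days 1, 3 and 7, and 0 of 14 passed in limma in the cerebrum, where 0, 0 and 1 had an unadjusted p under 0.05. Adamts20 fell by 1.08 at cord day 1 and by 0.90 at day 3, and Adamts17 fell by 0.45, 0.62 and 0.64 at the 3 cord days. Adamts14, a procollagen N-proteinase, rose at cord days 1 and 7 (0.61 and 0.62). Of 7 ADAMTS-like proteins, 1, 0 and 1 rose in the cord, where 15.8%, 10.2% and 15.7% of all genes were called higher. Of 10 ADAM proteases, 4, 5 and 5 rose and 1, 2 and 1 fell in the cord, led by Adam8, a leukocyte ADAM (1.61, 2.53 and 5.67).

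Among 11 lecticans, link proteins and their partners, 2, 2 and 3 rose and 1, 2 and 3 fell in the cord at days 1, 3 and 7. Over all genes 15.8%, 10.2% and 15.7% were called higher there and 16.1%, 9.51% and 17.3% lower. In the cerebrum 2, 1 and 2 rose, where 8.91%, 3.45% and 4.79% of all genes were called higher. Falls in the cerebrum are not given here for this list or those that follow. Bcan, which encodes brevican, fell by 0.91, 1.69 and 1.04 in the cord. Vcan, which encodes versican, rose at cord day 3 (0.82) and day 7 (2.13) and at cerebral days 1 and 7 (0.40 and 0.90). Tnc, the lectican ligand tenascin-C, rose at every day in cord (4.11, 3.99 and 4.77) and cerebrum (1.95, 2.66 and 1.30). Hapln1, a link protein, fell by 1.41 at cord day 7.

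Of 16 genes for activation, clearance and other inhibition, 8, 7 and 9 rose and 3, 2 and 3 fell in the cord, and 5, 4 and 4 rose in the cerebrum. Lrp1, the receptor that clears TIMPs and ADAMTS proteases, rose at all 3 cord days (0.98, 1.01 and 2.37) and at cerebral days 1 and 3 (1.10 and 1.09). Plaur, the urokinase receptor, rose in the cord (3.17, 2.65 and 2.75) and did not pass in the cerebrum (0.52, 0.53 and 0.79). A list of 17 genes held inducing cytokines, their receptors and the signalling genes Stat3 and Socs3. Of these, 14, 10 and 10 rose in the cord and 1, 0 and 0 fell, and 7, 6 and 5 rose in the cerebrum. Il6 rose at cord days 1 and 3 (2.66 and 1.50) and Il1b likewise (2.84 and 2.55). Osmr, the oncostatin M receptor, rose at all 3 cord days (1.56, 1.73 and 1.29).

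Several members lie within or beside other genes in the GRCm38.p6 annotation. Timp1, Timp3 and Timp4 overlap with the synapsin genes Syn1, Syn3 and Syn2, which encode synaptic vesicle proteins. At cord day 7 these fell, Syn1 by 1.02, Syn3 by 1.74 and Syn2 by 0.84, while Timp1 was higher. Timp2 overlaps with Cep295nl. Adamts1 and Adamts5 are neighbouring genes on chromosome 16.

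Pearson's r over the 32 arrays, given as a description since the arrays share groups and tissue, named the genes whose pattern was most like each member. For Timp1 these were Bcl3 (0.962), Tm4sf1 (0.953), Rdh10 (0.951), Ccl6 (0.949) and Ccn1 (0.939). For Timp2 they were Fuca1 (0.963) and Lipa (0.960), which encode lysosomal enzymes, with Uap1l1 (0.961), Tcn2 (0.958) and Ech1 (0.950). Timp3 was most like Dcn (0.924), which encodes decorin of the fibroblast list, then Prg4 (0.920) and Nupr1 (0.902). Timp4 was most like Ankrd13a (0.895), Plce1 and Tead1 (both 0.893). Adamts1 stood nearest to Tle3 (0.973), Ampd3 and Tnfrsf12a (both 0.971) and Ccn1 (0.970). Adamts4 stood nearest to Myrf (0.953), Lpin1 (0.952), Itpkb and Prr5l (both 0.943) and Slc6a5 (0.941). Adamts5 did so to Nbl1 (0.955) and Rbms1 (0.945), and Adamts9 to Sdc4 (0.922), a syndecan, and Gadd45a (0.914). Among the members themselves Timp1 and Adamts1 were the most alike pair (0.937).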

How the data were processed

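RNA of 32 snap-frozen samples was extracted with TRIzol and 10 ng was labelled with biotin, per the labels' protocols. The authors deposited log2 values, per probe and array, and the sources used here name neither the software that summarised them nor a genome build. These values were found centred per probe in 3 parts. Over the 16 control and day 1 arrays the median was 0 in 100% of 22206 probes, within 2e-06. Day 3 and day 7 (8 arrays each) had been centred apart together with the controls, which matched in 86.8% of 5646 and 86.4% of 5147 probes that could be tested, against 68.7% to 70.2% for other partners. The offset of each probe was therefore rebuilt, as 1 value in 77.9% and 80.0% of probes and else as a range. Comparisons across parts were tested in limma against a bound, the range's half-width plus an allowance of 0.165. Of the probes 19572 carry 1 symbol in the platform table, which gives 19505 genes, with probes of 1 gene averaged.

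A single limma model of 8 group means was fitted to all 32 arrays, with Benjamini-Hochberg adjustment over 19505 genes in each of 19 comparisons and a call at an adjusted p under 0.05. The labels give the groups, while replicates were numbered by accession order, so a number pairs no arrays. The number of arrays limits the precision, and the median residual SD was 0.185. Members, gene lists and alternatives were chosen with earlier results of these data known. All members are named, with genes of the lists and genes among the 5 of highest Pearson r with each member, predicted genes passed over. Lists are given as counts and medians, with no set test. Fits ran in limma 3.58.1 under R 4.3.3. Tables and plots were made in Python 3.11.15 (scipy 1.17.1, pandas 2.3.3, numpy 2.4.6, matplotlib 3.10.9).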

Additional observations from a re-analysis of the deposited data

Results flagged for a closer look

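The change from control differed between cord and cerebrum in 10 of 24 tests in the limma fit. These were 4, 3 and 3 of 8 members at days 1, 3 and 7, where 11.3%, 9.27% and 27.6% of all genes differed. Leaving out single arrays lost Adamts1 at day 3 and Timp2 at day 7 in 12 of 16 cases each, and Timp1 at day 7 in 9 of 16. For Timp1 the spinal minus cerebral log2 difference was 3.15, 2.90 and 1.62 at days 1, 3 and 7, and for Adamts1 it was 2.58, 1.43 and 1.55. Timp2 gave -1.06 at day 1 and 0.57 at day 7, the second of which turned to -0.79 with quantile normalisation on top. Adamts4 gave -0.996 at day 3 and Adamts9 0.90 at day 1.

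In 4 of 64 groups of 4 arrays 1 array lay far from the other 3, and chance gives this in about 1 in 20 groups. Adamts1 was lowest on cerebral day 1 replicate 2 (-0.0376), in a group that spans less than the median residual SD, and highest on cerebral day 7 replicate 1 (0.0697). Adamts4 was lowest on cord day 7 replicate 1 (0.76). Adamts9 was lowest on cerebral day 7 replicate 2 (-0.53).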

How the results depend on the processing

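Of 1712 values of 80 member results under alternatives, 1542 kept their side of the threshold, 135 lost the call, 34 gained it, and 1 called value changed sign. Values not called in either fit could change sign within the 1542, as Adamts4 at cord day 7 did with quantile normalisation on top (-0.26). The call never changed for 42 of the 80. With quantile normalisation on top, the Timp2 spinal minus cerebral difference at day 7 was -0.79 (adjusted p = 0.00858) and the Timp2 difference between cord and cerebral day 7 was -0.0042; the cause was not tested. The SD over genes was 0.79 to 0.91 on cord day 7 arrays, which this setting brings to that of the others.

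The number of the 8 members that passed changed by more than 1.5 times as follows, and the cause was not tested. Shares of all genes called under these settings are not given here. The values as deposited and the offset taken as exact were tested without the bound. At cerebral day 1 it was 2, and 6 with only the groups compared in the fit and 1 with control replicates 1 and 2 only. At cerebral day 3 it was 1, and 3 with the values as deposited, with quantile normalisation and with only the groups compared, 2 with the offset taken as exact and 0 with control replicates 1 and 2 only (limma, 1 at an unadjusted p under 0.05). At cerebral day 7 it was 1, and 2 as deposited and with the exact offset and 3 with only the groups compared. At cord day 1 it was 7, and 3 with only the groups compared. At cord day 3 it was 4, and 7 with the exact offset and 2 with the allowance doubled, quantile normalisation, only the groups compared or control replicates 1 and 2 only. At cord day 7 it was 4, and 7 as deposited and 2 with quantile normalisation. For the controls it was 6, and 3 with control replicates 1 and 2 only or 3 and 4 only. For the difference between tissues it was 3 at day 3 and 3 at day 7, and 1 and 1 with quantile normalisation, 0 and 0 with control replicates 1 and 2 only (limma, 2 and 2 at an unadjusted p under 0.05), and 1 at day 7 with control replicates 3 and 4 only.

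Leaving out each array in turn gave 1 to 2, 1 and 1 members at cerebral days 1, 3 and 7, 5 to 7, 2 to 5 and 3 to 5 at the cord days, 3 to 5 for the controls, and 3 to 4, 1 to 4 and 1 to 4 for the differences between tissues. No paired analysis was possible because the labels carry no replicate numbers. Array weights, robust eBayes, scaling to the 75th percentile and the probe with the highest mean gave counts within 1.5 times of the main ones in the 10 comparisons.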
